A study of Mus musculus with 27 samples.

Results

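The genes described here encode the subunits of the oxidative phosphorylation machinery, in liver lobular zones of non-pregnant and pregnant mice. They were chosen by gene name: the Nduf genes of complex I, Sdha, Sdhb, Sdhc and Sdhd, the Uqcr genes, the Cox4 to Cox8 genes, the Atp5 genes and the protein-coding genes of mitochondrial DNA, without assembly factors named Ndufaf and without names ending in -ps. Of 98 matching names, 93 passed a filter of at least 1 FPKM in 3 or more of 27 libraries, among 12952 of 21823 genes in the table that passed it. Nuclear DNA encodes 80 of them (37 in complex I, 4 in complex II, 8 in complex III, 13 in complex IV and 18 in complex V) and mitochondrial DNA encodes 13. FPKM, the fragments of a gene scaled to transcript length and to the mapped fragments of the library, is a level per length, and levels of genes can be set side by side as far as their reads could be placed uniquely.

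Liver was taken from wild-type female C57BL/6 mice (C57BL/6N in the methods of the study) that were non-pregnant (NP) or at 8 or 16 days post coitum (dpc), with no transgene or drug in any group. Zone 1, zone 2 and zone 3 were cut from frozen sections with a laser, and RNA depleted of ribosomal RNA was sequenced. Each of the 9 groups of stage and zone holds 3 libraries. The study describes its replicates as independent experiments, but the labels tie no library to an animal and do not say whether zones shared one, so p-values measure the spread between libraries.

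Oxidative phosphorylation takes place in the inner mitochondrial membrane. Complexes I and II pass electrons to coenzyme Q, complex III passes them on to cytochrome c, and complex IV gives them to oxygen, while complex V, the ATP synthase, uses the proton gradient built by complexes I, III and IV. Complex II is also the succinate dehydrogenase of the citric acid cycle and is encoded by nuclear genes alone. Hepatocytes around the portal vein (zone 1) receive blood richer in oxygen than those around the central vein (zone 3), and are classically described as the more oxidative.

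All 27 libraries carried hepatocyte markers at a mean of 9.50 or more on the log2(FPKM + 1) scale, and markers of zone 1 hepatocytes had a mean of 8.26 or more in zone 1 and of 4.80 or less in zone 3. Depth, estimated from the FPKM values, ran from 7.517 to 33.21 M reads a library. Y-linked genes summed to 7.92 to 23.2 FPKM in 6 libraries labelled female, and to at most 2.97 FPKM in the other 21. These 6 were NP zone 1 replicate 1, NP zone 3 replicate 2, 8 dpc zone 1 replicate 1, 8 dpc zone 2 replicate 2, 16 dpc zone 2 replicate 3 and 16 dpc zone 3 replicate 3. The mean of 15 connective tissue and smooth muscle markers was 4.30 to 5.82 in them and 1.37 to 3.59 in the others, while the hepatocyte mean was 9.50 to 10.6 against 10.2 to 11.5. Oxidative phosphorylation genes were lower in these libraries by median in 77 of 80 nuclear cases (median ratio 0.736) and in all 7 mitochondrial genes over 100 FPKM (median ratio 0.494), beside 48.3% of all genes. The median FPKM of the nuclear members was 99.0 to 125 in the 6 libraries and 132 to 208 in the others, without overlap. Where leaving them out changed a call of an oxidative phosphorylation gene, both values are given. In dissected tissue, fewer hepatocytes and less RNA per hepatocyte cannot be told apart.

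The mitochondrially encoded genes fell into a high and a low set, and 5 of the 6 low genes have near-identical annotated copies in nuclear DNA. The high set was mt-Co1 with a mean of 7245 FPKM over 27 libraries, mt-Cytb with 5831, mt-Nd1 with 4280, mt-Nd2 with 3481, mt-Nd4 with 2294, mt-Nd5 with 2094 and mt-Nd6 with 389. The low set was mt-Co2 with 11.3, mt-Atp6 with 4.30, mt-Co3 with 3.45, mt-Atp8 with 1.78, mt-Nd3 with 1.13 and mt-Nd4l with 1.03. The low set made 0.0585% to 0.140% of the mitochondrial FPKM sum of a library, although mt-Co2 and mt-Co3 encode catalytic and core subunits of the same enzyme as mt-Co1. The study kept uniquely mapped reads, so a read that lies equally well in 2 places was not counted. Windows of 86 bases, the read length, were found in another annotated transcript for 99.5% of those of mt-Co2, 99.5% of mt-Atp6, 99.9% of mt-Co3, 97.7% of mt-Nd3 and 98.6% of mt-Nd4l. The share was 61.2% for mt-Nd4, 34.9% for mt-Co1, 4.62% for mt-Nd2 and 0.575% for mt-Nd5, and it was 0% for mt-Nd1, mt-Nd6, mt-Cytb and mt-Atp8. FPKM of the 5 genes with 97.7% or more shared therefore counts only the reads that could be placed and is not a level of the transcripts. The same holds in part for mt-Nd4 and mt-Co1, so their levels are less certain than those of mt-Nd1 and mt-Cytb. The low level of mt-Atp8, whose windows matched no other annotated transcript, has no such value beside it.

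**Figure D1:**
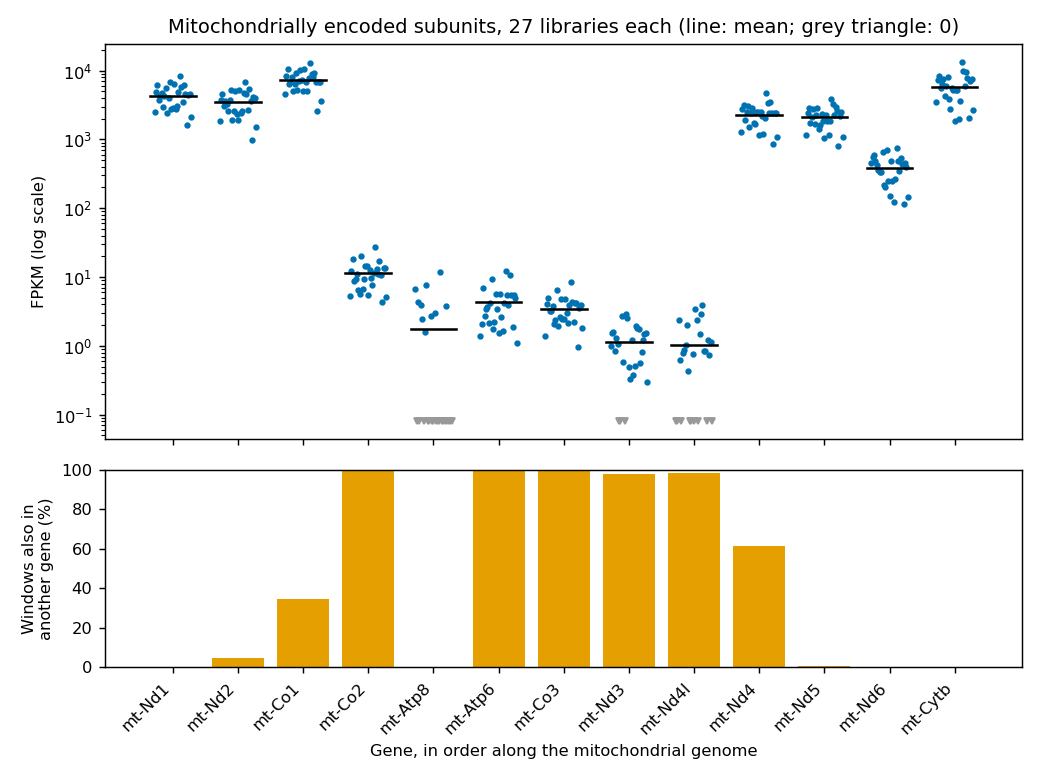
FPKM of the 13 mitochondrially encoded genes in the order of the mitochondrial genome on a log axis, with a point for each of 27 libraries, a line at the mean and a grey triangle for a value of 0 (upper panel), and the percent of 86-base windows also found in another annotated transcript (lower panel). The genes with 97.7% or more of their windows shared have means of 11.3 FPKM or less, and mt-Atp8 is low with 0% shared.

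Most of the annotated copies lie together. On mm10, 7 annotated copies (Gm29216, Gm28661, Gm10925, Gm28437, Gm28438, Gm10222 and Gm28439) span chr1:24611535-24616197 on the minus strand, 4663 bases in the same order as bases 6381 to 11042 of mitochondrial DNA, with an offset that varies by no more than 1 base. Over these copies on chromosome 1, mt-Co2 (681 bases), mt-Atp6 (678), mt-Co3 (783), mt-Nd4l (294) and the 876 shared bases of mt-Nd4 held 0 mismatches, mt-Nd3 held 1 in 345, and mt-Co1 held 6 in the 492 bases from its base 1054 on. Other annotated copies lie on chromosome 2. Gm13340 has 37 mismatches in 1545 bases of mt-Co1, and Gm13341 has 173 in 672 bases of mt-Co2. mt-Atp8 lies inside the same stretch at bases 7766 to 7969 but has no annotated copy there, and the genome sequence itself was not compared. The starts of 2 copies and a read-length stretch of mt-Co3 are shown because they decide where a read can be placed. Capitals mark bases that differ between the members of a pair, and all are written 5′ to 3′ on the strand of the gene, from mm10.
mt-Co1, chrM:6381-6440, plus strand: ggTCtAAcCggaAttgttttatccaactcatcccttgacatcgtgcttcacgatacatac
Gm29216, chr1:24616138-24616197, minus strand: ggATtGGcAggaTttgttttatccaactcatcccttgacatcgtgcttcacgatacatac
mt-Nd3, chrM:9459-9518, plus strand: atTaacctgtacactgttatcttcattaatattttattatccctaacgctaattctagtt
Gm28438, chr1:24613060-24613119, minus strand: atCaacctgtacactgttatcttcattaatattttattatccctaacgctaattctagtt
mt-Co3, chrM:8607-8692, plus strand: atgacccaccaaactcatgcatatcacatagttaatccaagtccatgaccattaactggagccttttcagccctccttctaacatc
Gm28437, chr1:24613886-24613971, minus strand: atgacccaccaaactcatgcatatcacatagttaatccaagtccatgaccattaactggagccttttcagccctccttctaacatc
The first pair has its first difference at base 1056 of mt-Co1 (T1056A) and the second at base 3 of mt-Nd3 (T3C), counted from 1 at the 5′ end of the mitochondrial gene. The mt-Co3 pair is identical over its 86 bases, so a read from it has 2 equal places.

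Among the nuclear genes, levels were high and even. The 80 genes had a median of mean levels of 146 FPKM, from 1.12 to 1022, and a median SD within a group of 0.331 on the log2 scale, beside 0.418 for 612 genes of like level and 0.451 for all genes that passed the filter. By complex the median level was 97.6 FPKM for complex I, 149 for complex II, 211 for complex III, 239 for complex IV and 217 for complex V. The highest nuclear gene was Atp5b, the catalytic beta subunit of the ATP synthase, which lay between 806 and 1340 FPKM in every library and had the smallest SD, 0.146. Atp5d with 0.161, Atp5g2 with 0.176 and Cox6b1 with 0.194 followed, and the largest SDs were 0.608 for Atp5k and 0.560 for Ndufa6, setting aside Cox7a1, Ndufa4l2, Cox6b2 and the second Atp5o entry, whose mean levels were 2.70 FPKM or less. In complex I, Ndufa4, now counted by many as a complex IV subunit, had the highest mean at 363 FPKM and Ndufa4l2 the lowest at 1.76, with Ndufb3 next at 39.9. In complex II, Sdha, the flavoprotein that oxidises succinate, had 230 FPKM, Sdhc 168, the iron-sulfur subunit Sdhb 129 and the membrane anchor Sdhd 112. In complex III, Uqcrq had 560 FPKM and the core subunit Uqcrc1 118.

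Where a subunit has a liver form and a form known from muscle, testis or other tissues, the liver or ubiquitous form held nearly all of the level. Cox4i1 had a mean of 595 FPKM and Cox4i2, the lung form, 0.0414. Cox6a1 had 359 against 0.104 for the heart and muscle form Cox6a2. Cox6b1 had 882 against 2.52 for the testis form Cox6b2, and Cox8a had 239 against 0.213 for the muscle form Cox8b. Cox7a2 had 190 FPKM, the muscle form Cox7a1 had 2.70 with a highest library of 10.7, and the related gene Cox7a2l had 50.1. The 3 genes for the c subunit of the ATP synthase, which encode the same mature protein, were all expressed: Atp5g3 at 271, Atp5g1 at 104 and Atp5g2 at 77.7 FPKM. Of the 86-base windows of Atp5g2, however, 35.3% lie in other annotated transcripts too, against 0% for Atp5g3, so its level is less certain. Among the nuclear genes the share was highest for the second Atp5o entry (80.9%) and Atp5l (73.0%), was 34.4% for Ndufb4 and 24.9% for Ndufa13, and had a median of 0%. Matching names that failed the filter were Cox4i2, Cox6a2, Cox8b, Cox7b2 and Cox8c, of which the last 2 were listed at 0 in every library. Just inside the filter were mt-Atp8 and mt-Nd4l with 10 libraries at 1 FPKM or more, a second entry named Atp5o with 11, mt-Nd3 with 14 and Ndufa4l2 with 16. Just outside was Cox8b with 2 libraries.

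At 8 dpc no gene of the machinery passed the test against NP. Comparing 8 dpc with NP over the 3 zones asked whether the first part of pregnancy moved the machinery, with limma on log2(FPKM + 1), 9 group means and Benjamini-Hochberg adjusted p under 0.05 over all genes as the threshold for a call. None of the 80 nuclear and none of the 13 mitochondrial genes was called, where 0.108% of all genes tested were called. At an unadjusted p under 0.05 there were 0 nuclear genes and 2 mitochondrial ones, beside 6.11% of all genes. The nuclear log2 fold changes had a median of -0.02 and 37 of 80 were above 0, beside 49.9% of all genes. All 95% confidence intervals of the nuclear genes lay within -1.19 to 0.99, and the medians of their bounds were -0.33 and 0.31. Among the larger nuclear differences were 0.29 for Ndufb2 and 0.19 for Ndufa7 upward, and -0.39 for Cox6b2, -0.30 for the second Atp5o entry and -0.24 for Atp5k downward. Within zones 1, 2 and 3 the counts of nuclear genes called were 0, 0 and 0 (limma), beside 0.0309%, 0.00772% and 0.0154% of all genes, and none had an unadjusted p under 0.05, beside 3.13%, 5.06% and 2.74%. Of 80 nuclear genes 17 were above 0 in zone 1, 49 in zone 2 and 50 in zone 3, beside 51.7%, 50.3% and 46.3% of all genes. Libraries with Y-linked FPKM lie in zone 1 at both stages, in zone 2 at 8 dpc only and in zone 3 in NP only.

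All 13 mitochondrial genes had log2 fold changes below 0 at 8 dpc, with a median of -0.20, and none passed the test. mt-Nd6, the only one of the 13 on the minus strand, had -0.83 (SE 0.33, adjusted p = 0.667), and mt-Cytb, the complex III subunit cytochrome b, had -0.74 (SE 0.33, adjusted p = 0.742). mt-Cytb was at 3442, 6301 and 8447 FPKM (lowest, median and highest of 9) in NP libraries and at 1873, 3879 and 5518 in those of 8 dpc, so the groups overlapped. mt-Co1 had -0.02, mt-Nd4 -0.28 and mt-Nd5 -0.35.

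The spread of mt-Cytb at 8 dpc followed the replicate number. The ratio of mt-Cytb to mt-Co1 FPKM within a library was 0.766 to 0.930 in the 9 NP libraries. At 8 dpc it was 0.707 to 0.761 in the 3 libraries numbered 1, 0.378 to 0.386 in those numbered 2 and 0.470 to 0.544 in those numbered 3. At 16 dpc it was 1.03 to 1.05 in replicate 1, 1.11 to 1.15 in replicate 2 and 0.739 to 0.788 in replicate 3. Within a number the 3 zones lay close together, and the numbers did not overlap within 8 or 16 dpc. The sum of mt-Nd4, mt-Nd5 and mt-Cytb, which lie further along the plus strand, over that of mt-Nd1, mt-Nd2 and mt-Co1 was 0.405 to 0.468 in the 6 libraries of 8 dpc numbered 2 and 3, and 0.669 to 0.868 in the other 21. No label states what a replicate number stands for. These ratios were examined after the values were seen and carry no test.

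**Figure D2:**
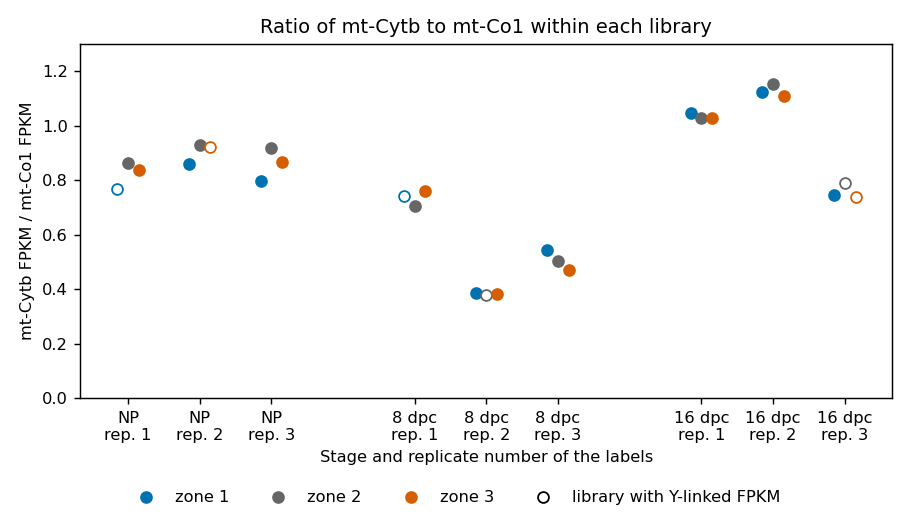
Ratio of mt-Cytb to mt-Co1 FPKM in each of 27 libraries by stage and replicate number, with zones in colour and open symbols for the 6 libraries with Y-linked FPKM. The 3 zones of each number sit together at 8 and 16 dpc, with the lowest values, 0.378 to 0.386, in 8 dpc replicate 2.

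In late gestation Sdha was the single nuclear gene that passed the main test, and it fell. The count of genes passing moved widely under other settings, as given in the closing section. The other complex II genes were lower by a similar size without passing, and Ndufb7 of complex I was the highest-ranked gene in the other direction. At 16 dpc against NP over the 3 zones, 11.8% of all genes were called, 5.65% higher and 6.15% lower, beside 0 higher and 1 lower of 80 nuclear genes (1 of 80) and 0 of 13 mitochondrial ones. At an unadjusted p under 0.05, 1 nuclear gene was higher and 7 lower, beside 11.5% and 12.3% of all genes, and no mitochondrial gene was. The nuclear median was -0.04 with 33 of 80 above 0 (48.7% of all genes), against -0.01 over all genes, and the mitochondrial median was 0.02. The comparisons of 8 and 16 dpc with NP share the NP libraries.

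Sdha (chr13:74322254-74350280, minus strand, mm10) was at 198, 261 and 357 FPKM (lowest, median and highest of 9) in NP, at 157, 234 and 326 at 8 dpc and at 112, 201 and 242 at 16 dpc. The late range reached lower than the NP range but overlapped it. The means were 266 ± 56.6 FPKM (SD, n = 9) in NP, 239 ± 49.6 at 8 dpc and 185 ± 40.5 at 16 dpc, a log2 fold change of -0.53 against NP (SE 0.17, 95% interval -0.87 to -0.18, adjusted p = 0.0427 by limma). The size held better than the call. Over 18 fits with 1 library removed the log2 fold change was -0.61 to -0.43, while 12 fits did not call Sdha (adjusted p 0.0530 to 0.0962). It stayed called without NP zone 1 replicate 1, NP zone 3 replicate 3, 16 dpc zone 1 replicate 1, 16 dpc zone 2 replicate 1 or 2, or 16 dpc zone 3 replicate 2. With the replicate number as a block the adjusted p was 0.123 at the same fold change, and with only the NP and 16 dpc libraries in the fit it was 0.0671. Scaled to the nuclear FPKM sum, Sdha had -0.93 (adjusted p = 7.7e-06). The count of nuclear genes called was 2 without NP zone 1 replicate 1, NP zone 3 replicate 3 or 16 dpc zone 3 replicate 2. The share of all genes called in those fits is not given.

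The other complex II genes lay in the same direction. Sdhb was at 93.3, 138 and 208 FPKM (lowest, median and highest) in NP and at 77.6, 94.5 and 159 at 16 dpc, a log2 fold change of -0.37 (adjusted p = 0.147). Sdhc was at 131, 192 and 263 against 89.4, 153 and 188, a change of -0.35 (adjusted p = 0.155), and Sdhd was at 94.2, 126 and 187 against 56.5, 99.4 and 146, a change of -0.42 (adjusted p = 0.129). These ranges overlapped for all 3. All 4 complex II genes had an unadjusted p under 0.05. Without the 6 libraries with Y-linked FPKM, Sdha (-0.46, adjusted p = 0.0301), Sdhb (-0.48, adjusted p = 0.0178) and Sdhd (-0.37, adjusted p = 0.0403) were called lower.

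**Figure D3:**
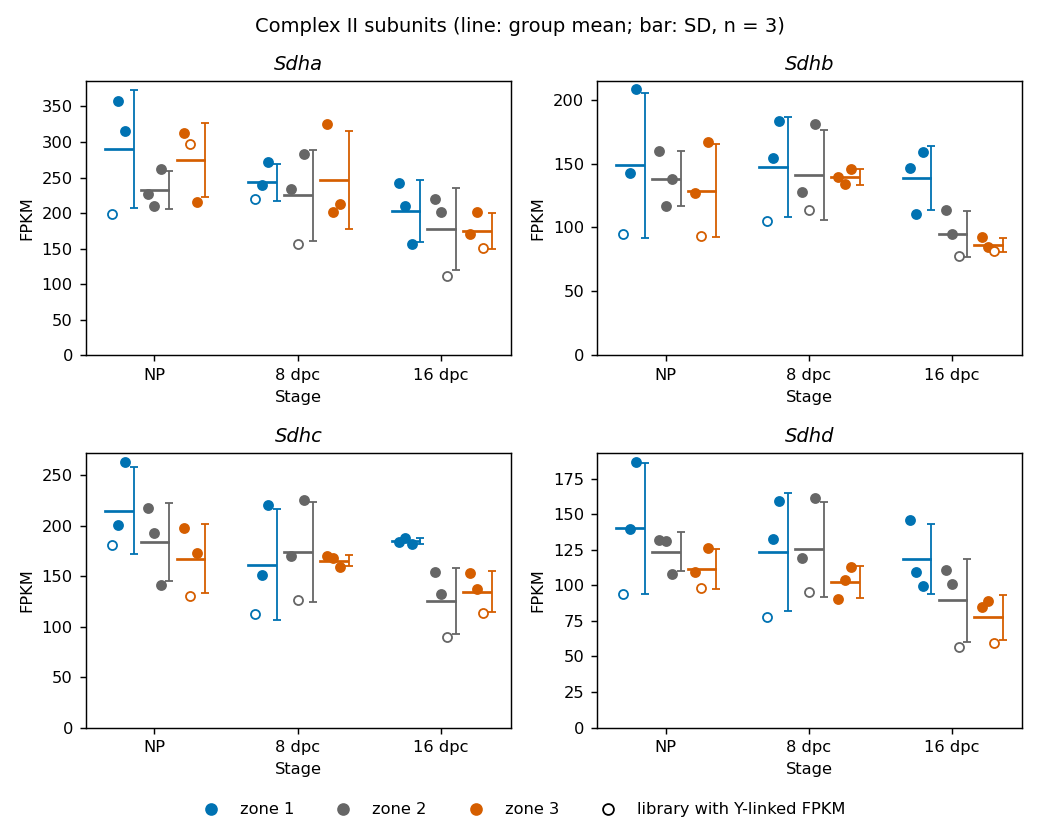
FPKM of Sdha, Sdhb, Sdhc and Sdhd by stage and zone, with a point per library, a line at the mean and a bar of SD (n = 3), and open symbols for libraries with Y-linked FPKM. The points at 16 dpc lie low in zones 2 and 3, and in zone 3 Sdha has 151 to 202 FPKM against 216 to 312 in NP.

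In zone 3 the late and NP libraries did not overlap for 3 of the 4 complex II genes. Sdha was at 216, 297 and 312 FPKM in NP and at 151, 171 and 202 at 16 dpc, Sdhb was at 93.3, 127 and 167 against 81.2, 85.1 and 92.5, and Sdhd was at 98.3, 110 and 126 against 59.2, 84.5 and 88.8. In each case all 3 late libraries lay below all 3 NP libraries. The log2 fold changes were -0.65, -0.54 and -0.53, and none passed the test with 3 libraries a group (adjusted p = 0.383, 0.489 and 0.541). The fall was not particular to zone 3. The median log2 fold change of the 4 complex II genes was -0.20, -0.53 and -0.53 in zones 1, 2 and 3. In zone 2 the late range lay below that of NP for 1 of the 4. In zone 3, 7 of 80 nuclear genes had late ranges wholly below those of NP, beside 8.87% of all genes, so the count for the whole machinery was near the background. Within zones 1, 2 and 3, 0 nuclear genes were called at 16 dpc (limma), beside 1.37%, 2.66% and 1.32% of all genes, and the number above 0 was 56, 31 and 15 of 80, beside 45.6%, 52.7% and 51.4%. Libraries with Y-linked FPKM, in which nuclear genes were lower by median, lie in zone 1 in NP only, in zone 2 at 16 dpc only and in zone 3 at both stages. Their part in these counts was not tested. At an unadjusted p under 0.05 there was 1 nuclear gene in each zone, beside 11%, 16.6% and 11.5% of all genes: Ndufb7 in zone 1 (0.61), Sdhc in zone 2 (-0.56) and Sdha in zone 3.

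The gene furthest in the other direction was Ndufb7, an accessory subunit of complex I (chr8:83566671-83571626, plus strand, mm10). It was at 43.8, 75.2 and 113 FPKM (lowest, median and highest) in NP and at 59.3, 101 and 157 at 16 dpc, with overlap. The log2 fold change was 0.47 (SE 0.16, adjusted p = 0.0691), and without the 6 libraries it was 0.47 with an adjusted p of 0.0191. Uqcr11, a small subunit of complex III, had 0.31 with all libraries and 0.38 without the 6 (adjusted p = 0.00734), where it was called higher. Ndufa4l2 had 0.39. Downward, Cox7a1 had -1.04 (adjusted p = 0.109) at levels of 10.7 FPKM or less, the second Atp5o entry had -0.50 (adjusted p = 0.478) at means of 0.730 against 1.51 FPKM, and Ndufa5, a complex I subunit of the arm in the matrix, had -0.49 (adjusted p = 0.111).

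**Figure D4:**
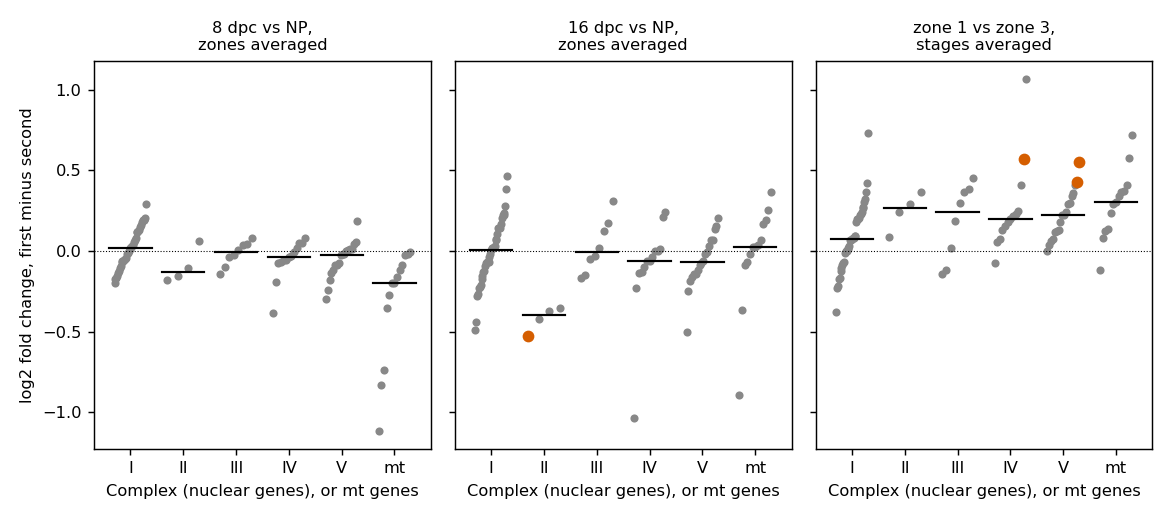
Log2 fold changes of the 93 genes by complex and for the mitochondrially encoded genes, for 8 dpc against NP, 16 dpc against NP and zone 1 against zone 3, with a point per gene, a line at the median and called genes in orange. Complex II sits below 0 in late gestation with a median of -0.40, and all 18 genes of complex V sit above 0 in zone 1 against zone 3.

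Between 8 and 16 dpc 11.1% of all genes were called and 0 of the 93 genes of the machinery were (limma), with 2 nuclear genes higher and 4 lower at an unadjusted p under 0.05, beside 11.5% and 12.4% of all genes. Ndufa13, a complex I subunit also known as GRIM-19, had a log2 fold change of 0.36 (adjusted p = 0.0774), Ndufa1 0.38 (adjusted p = 0.117), Ndufb7 0.34 (adjusted p = 0.212), Cox7a1 -0.85 (adjusted p = 0.207), Sdhb -0.43 (adjusted p = 0.0846) and Ndufs7, which carries an iron-sulfur cluster of complex I, -0.42 (adjusted p = 0.103). mt-Cytb had 0.81 (SE 0.33, adjusted p = 0.121), and 12 of 13 mitochondrial genes were above 0. Without the 6 libraries with Y-linked FPKM, 6 nuclear and 2 mitochondrial genes were called. The share of all genes called in that fit is not given, so these counts have no background beside them. Higher were Ndufa1 (0.44, adjusted p = 0.0290), Ndufa13 (0.35, 0.0264), Ndufb7 (0.39, 0.0469), Uqcr11 (0.43, 0.00288), mt-Cytb (1.03, 0.00483) and mt-Nd5 (0.56, 0.0285), and lower were Ndufa12 (-0.39, 0.0278) and Sdhb (-0.50, 0.0132). With all libraries mt-Nd5 had 0.39 (adjusted p = 0.402), Uqcr11 0.34 (adjusted p = 0.225) and Ndufa12 -0.28 (adjusted p = 0.209). The ratio of mt-Cytb to mt-Co1 followed the replicate number at both stages, as given above. These fits have no block and count the 3 zones of a number as separate libraries, so the adjusted p of mt-Cytb may be too small. Leaving out 16 dpc zone 2 replicate 3 alone gave a call to mt-Cytb (1.04, adjusted p = 0.0181) and to Ndufa13, leaving out 16 dpc zone 3 replicate 2 gave a call to Ndufs7, and leaving out 8 dpc zone 1 replicate 1 gave a call to Sdhb.

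The machinery took a smaller share of the FPKM sum late in gestation while its own sum kept its level. The nuclear genes made 2.17% to 2.97% of a library's FPKM sum in NP, 2.31% to 2.90% at 8 dpc and 1.71% to 2.16% at 16 dpc, without overlap between the last stage and the others. The median sum of the nuclear genes was 14708 FPKM in NP, 15039 at 8 dpc and 14970 at 16 dpc. The share of Alb, albumin, in the FPKM sum was 3.71% to 11.98% in NP and 7.98% to 20.97% at 16 dpc. Scaled to a common sum over all nuclear genes, the median of all genes moved by -0.31 at 16 dpc against NP and that of the nuclear members to -0.44, with 2 of 80 above 0. The direction of single genes between stages therefore holds relative to the FPKM scale.

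Across the lobule, Cox7b, Atp5g1 and Atp5o rose from zone 3 to zone 1, averaged over stages, and no nuclear gene was called in the other direction. The comparison asked whether levels differ between the portal and the central end. Of all genes 5.59% were called, 2.7% higher and 2.89% lower in zone 1, beside 3 of 80 nuclear genes higher and 0 lower. At an unadjusted p under 0.05, 14 were higher and 1 lower, beside 8.25% and 7.13% of all genes. Log2 fold changes were above 0 for 65 of 80 nuclear genes, beside 56.4% of all genes, with medians of 0.18 and 0.04. By complex 25 of 37 genes were above 0 in complex I (median 0.07), 4 of 4 in complex II (0.27), 6 of 8 in complex III (0.24), 12 of 13 in complex IV (0.20) and 18 of 18 in complex V (0.23).

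Cox7b (chrX:106015700-106022450, plus strand, mm10) encodes a small subunit of complex IV. It was at 273, 396 and 609 FPKM (lowest, median and highest of 9) in zone 1, at 227, 328 and 397 in zone 2 and at 215, 271 and 389 in zone 3, so the median declined along the lobule and the ranges overlapped. The means were 416 ± 99.4 FPKM (SD, n = 9) in zone 1 and 277 ± 49.1 in zone 3, a log2 fold change of 0.57 (SE 0.15, 95% interval 0.25 to 0.89, adjusted p = 0.0271).

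Atp5g1 (chr11:96068852-96075670, minus strand) encodes the c subunit that forms the rotor ring of the ATP synthase. It was at 78.4, 127 and 165 FPKM in zone 1 and at 66.4, 83.5 and 102 in zone 3, with means of 125 ± 28.2 and 83.4 ± 12.4 and a log2 fold change of 0.55 (SE 0.15, adjusted p = 0.0273). Atp5o (chr16:91925214-91931687, minus strand) encodes a subunit of the stalk that joins the catalytic head of the synthase to the membrane. It was at 179, 224 and 284 FPKM in zone 1 and at 142, 167 and 193 in zone 3, with means of 224 ± 34.0 and 165 ± 15.9 and a log2 fold change of 0.43 (SE 0.12, adjusted p = 0.0359). The Atp5o transcript shares 33.5% of its 86-base windows with other annotated transcripts, among them an antisense gene and the second entry of the same name, so its level is less certain. The ranges of zones 1 and 3 overlapped for both genes.

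These 3 calls depended on single libraries, while the log2 fold changes stayed at 0.50 to 0.64 for Cox7b, 0.49 to 0.67 for Atp5g1 and 0.38 to 0.47 for Atp5o. With 1 library removed, Cox7b lost its call in 7 of 18 fits (adjusted p 0.0537 to 0.0672), Atp5g1 in 9 (0.0510 to 0.0652) and Atp5o in 12 (0.0528 to 0.0842). For Cox7b these libraries were NP zone 1 replicate 3, NP zone 3 replicates 1 and 2, 8 dpc zone 1 replicate 3, 8 dpc zone 3 replicate 1, 16 dpc zone 1 replicate 1 and 16 dpc zone 3 replicate 3. For Atp5g1 they were NP zone 1 replicates 2 and 3, NP zone 3 replicates 1 and 2, 8 dpc zone 1 replicate 3, 8 dpc zone 3 replicates 1 and 2, 16 dpc zone 1 replicate 3 and 16 dpc zone 3 replicate 1. Atp5o held without NP zone 1 replicate 1, NP zone 3 replicate 3, 8 dpc zone 1 replicate 2, 8 dpc zone 3 replicate 3, 16 dpc zone 1 replicate 3 or 16 dpc zone 3 replicate 1. No nuclear gene was called without NP zone 1 replicate 3, NP zone 3 replicate 1 or 2, 8 dpc zone 1 replicate 3 or 8 dpc zone 3 replicate 1, and 5 were called without NP zone 1 replicate 1. Without the 6 libraries with Y-linked FPKM, 9 were called, all higher in zone 1. The shares of all genes called in the fits with libraries left out or with a block are not given. These counts therefore have no background beside them. Cox7b (0.53, adjusted p = 0.0221), Atp5g1 (0.68, 0.000529) and Atp5o (0.44, 0.0238) were joined by Ndufa1 (0.45, 0.0485), Sdhd (0.46, 0.0211), Uqcrc1 (0.35, 0.0350), Uqcrh (0.49, 0.0242), Atp5a1 (0.43, 0.00649) and Atp5b (0.35, 0.00649). With all libraries Ndufa1 had 0.42 (adjusted p = 0.131), Sdhd 0.36 (0.312) and Atp5b 0.30 (0.135). With the replicate number as a block 6 were called, the 3 genes with Ndufa1 (adjusted p = 0.0489), Uqcrh (0.0478) and Atp5a1 (0.048).

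**Figure D5:**
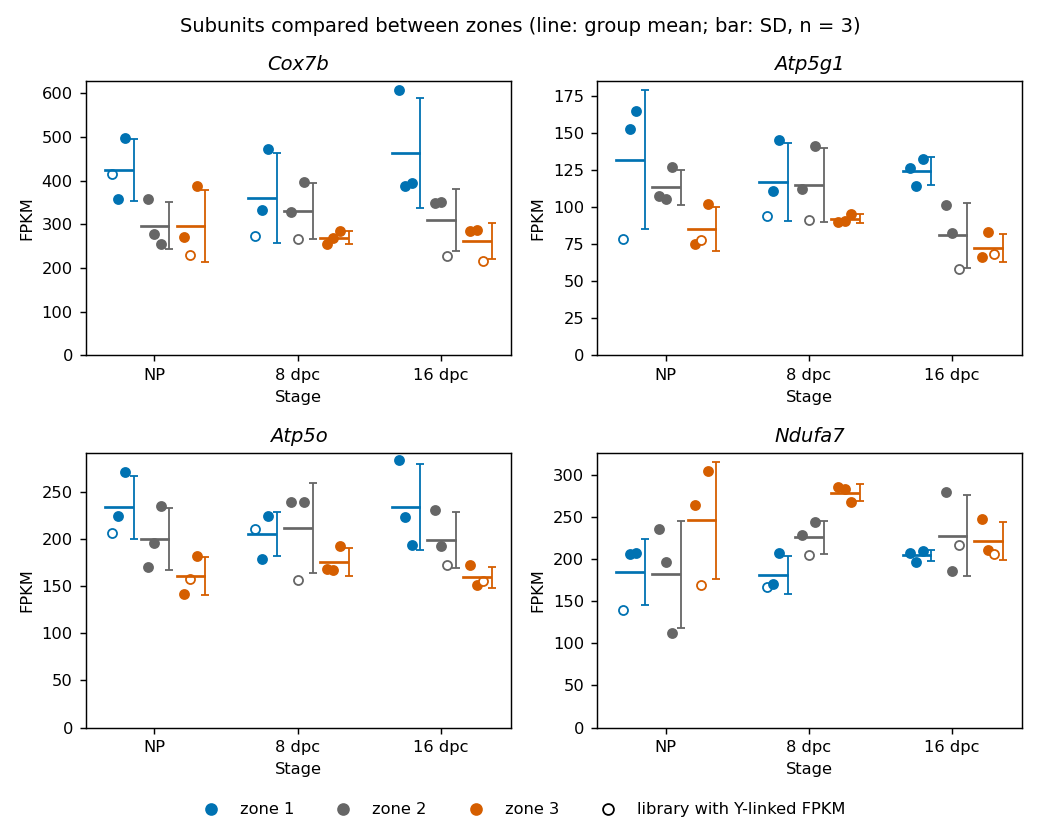
FPKM of Cox7b, Atp5g1, Atp5o and Ndufa7 by stage and zone, with a point per library, a line at the mean and a bar of SD (n = 3), and open symbols for libraries with Y-linked FPKM. Cox7b, Atp5g1 and Atp5o have higher means in zone 1 than in zone 3 at each stage, while Ndufa7 lies the other way over the 3 stages averaged.

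Other values in this comparison did not pass. Cox7a1 had a log2 fold change of 1.07 (adjusted p = 0.159) and Ndufa4l2 of 0.73, both at levels of 10.7 FPKM or less. Ndufa7, an accessory subunit of complex I, was at 140, 206 and 209 FPKM in zone 1 and at 170, 264 and 305 in zone 3, a change of -0.38 (SE 0.15, adjusted p = 0.174), and Ndufa6 had -0.23 and Ndufs5 -0.22. Atp5a1, the alpha subunit of the ATP synthase, had 0.41 (adjusted p = 0.0956), Uqcrc1 0.37 (0.114) and Uqcrh, the hinge protein of complex III, 0.46 (0.125). Of the mitochondrial genes 12 of 13 were above 0 with a median of 0.30 and 0 were called or had an unadjusted p under 0.05 (limma): mt-Nd6 had 0.57, mt-Co1 0.37, mt-Cytb 0.36 and mt-Nd1 0.30.

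The zone difference was most uniform at 16 dpc, though no single gene passed there. Within a stage 0 nuclear genes were called between zone 1 and zone 3 in NP, at 8 dpc or at 16 dpc, beside 1.34%, 1.61% and 1.55% of all genes. The number above 0 was 57 of 80 in NP, 35 of 80 at 8 dpc and 76 of 80 at 16 dpc, beside 53.5%, 56.7% and 48.3% of all genes, and the medians were 0.11, -0.04 and 0.37. At an unadjusted p under 0.05 there were 3 nuclear genes in NP and 2 at 8 dpc, beside 8.02% and 12.2% of all genes, and 18 at 16 dpc, all higher in zone 1, beside 4.79% of all genes. The 3 zone 1 libraries lay above the 3 zone 3 libraries for 32 of 80 nuclear genes at 16 dpc, beside 8.36% of all genes, and below them for 0, beside 6.39%. None of the 6 libraries with Y-linked FPKM is in zone 1 at 16 dpc and 1 is in zone 3. At 8 dpc such a library is in zone 1 and none is in zone 3, while NP has them in both zones. Their part in these counts was not tested. Without the 6, Atp5g1 was called within NP (0.85, adjusted p = 0.0393, against 0.57 and 0.558 with all libraries) and within 16 dpc (0.73, adjusted p = 0.0411).

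At 16 dpc Cox7b was at 387, 396 and 609 FPKM in zone 1 and at 215, 285 and 288 in zone 3 (log2 fold change 0.80, adjusted p = 0.221). Atp5g1 was at 114, 127 and 133 against 66.4, 68.3 and 83.5 (0.77, adjusted p = 0.221), and Sdhb was at 111, 146 and 159 against 81.2, 85.1 and 92.5 (0.67). Uqcr10, a small subunit of complex III, was at 232, 311 and 349 against 125, 178 and 219 (0.79). For each of these 4 genes the zones did not overlap. Libraries of the same replicate number, which deviated together at 16 dpc, can also be set side by side. Zone 1 was the higher in all 3 numbers for 56 of 80 nuclear genes and 11 of 13 mitochondrial ones at 16 dpc, beside 17.4% of all genes, and the lower in all 3 for 2 nuclear genes, beside 15.5%. Over replicates 1 and 2 alone, whose zone 1 and zone 3 libraries have no Y-linked FPKM at 16 dpc, zone 1 was the higher in both for 59 nuclear and 11 mitochondrial genes, beside 30.4%. In NP the number higher in all 3 was 17 (15.7% of all genes) and at 8 dpc it was 9 (23.9%), and the lower in all 3 were 4 (15%) and 14 (19.2%).

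The difference of the zone differences was tested directly. The change from NP to 16 dpc was more positive in zone 1 than in zone 3 for 70 of 80 nuclear genes, beside 48.5% of all genes, with a median of 0.24, but it was called for 0 of the 93 genes (limma), beside 0.054% of all genes, and had an unadjusted p under 0.05 for 0 nuclear genes, beside 3.16%. For the change from NP to 8 dpc 17 of 80 were above 0, beside 52.9% of all genes, with a median of -0.19. NP zones 1 and 3, 8 dpc zone 1 and 16 dpc zone 3 each hold a library with Y-linked FPKM. None lies in 8 dpc zone 3 or 16 dpc zone 1. Nuclear genes were lower by median in such libraries, and their part in these counts was not tested.

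Genes that build, feed and regulate the machinery were counted from lists of 6 kinds. Over the 3 zones none of these genes was called at 8 dpc against NP. At 16 dpc against NP, again over the 3 zones, Idh3b, a subunit of isocitrate dehydrogenase in the citric acid cycle, fell by 0.48 on the log2 scale (adjusted p = 0.00987). Of 13 carriers and cytochrome c genes 2 fell, Slc25a11, the oxoglutarate carrier, by 0.52 (adjusted p = 0.00285) and Slc25a10, the dicarboxylate carrier that moves succinate and malate, by 0.57 (adjusted p = 0.0444). Of 11 genes of coenzyme Q synthesis 1 fell, Coq8a, by 1.90 (SE 0.41, adjusted p = 0.00322), with NP libraries at 103 to 425 FPKM and late ones at 31.8 to 83.5, without overlap. Its NP and 8 dpc levels followed the replicate number in part, with 384 to 425 FPKM in NP replicate 2 against 103 to 228 in the others. At 8 dpc replicate 1 was at 44.2 to 107 and replicate 3 at 329 to 470, while replicate 2 was at 155 to 389 and overlapped replicate 3. Of 19 regulators 2 fell, the coactivators Ppargc1a by 0.88 (adjusted p = 0.0404) and Ppargc1b by 1.08 (adjusted p = 0.0173). Of 77 genes of the mitochondrial ribosome 5 rose and 0 fell: Mrpl20 (0.69), Mrps18b (0.65), Mrpl17 (0.64), Mrps28 (0.56) and Mrpl57 (0.45). Within single zones Mrps28 was also called higher in zone 1 (1.19, adjusted p = 0.0425), and Mrpl47 fell in zone 2 by 1.39 (adjusted p = 0.0412). Of 44 assembly factors Cox19 rose (0.43) and Coa5 fell (-0.31). With the replicate number as a block Idh3b (adjusted p = 0.0418), Slc25a11 (0.0191), Coq8a (0.00780), Mrpl20 (0.0447) and Mrpl17 (0.0180) stayed called over the 3 zones. Coa5 (0.0914), Cox19 (0.109), Slc25a10 (0.145), Ppargc1a (0.136), Ppargc1b (0.0561), Mrpl57 (0.0894), Mrps18b (0.0793) and Mrps28 (0.0942) did not. Without the 6 libraries with Y-linked FPKM, 12 of the 14 list genes called over the zones stayed called, and Mrps28 (0.0692) was among those lost. The calls of Mrps28 in zone 1 (0.145) and of Mrpl47 in zone 2 (0.0804) were lost too. The counts in these lists are to be read beside the 5.65% of all genes called higher and 6.15% called lower.

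At 16 dpc against 8 dpc, a comparison that shares the 9 late libraries with the one above, Idh3b (-0.45), Slc25a11 (-0.43), Coq8a (-1.87), Ppargc1b (-1.01) and Coa5 (-0.37) were called lower. Of 77 genes of the mitochondrial ribosome 6 rose and 0 fell, beside 5.37% and 5.69% of all genes. Cycs, somatic cytochrome c, rose by 0.61 (adjusted p = 0.0322) and Coa7, an assembly factor, by 0.87. In this comparison the block kept the calls of Coq8a (adjusted p = 0.00926), Coa5 (0.0391) and Mrpl20 (0.0161), and the other list genes called had an adjusted p of 0.0567 to 0.110. Between zones, Cs and Ppargc1a were the list genes called. Cs, citrate synthase, was lower in zone 1 with 34.9 against 59.0 FPKM in zone 3 (log2 fold change -0.77, adjusted p = 0.00901). Ppargc1a was higher in zone 1 with 6.29 against 2.95 FPKM (0.97, adjusted p = 0.0386). Without the 6 libraries the adjusted p of Ppargc1a was 0.0641.

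Promoters of the nuclear genes were scanned for motifs known for this gene class, in 300-base windows of RefSeq (build GRCm38.p6, from 250 bases before to 50 after the start), found for 65 of 79 gene names. The letters were searched on both strands without mismatches. GCGCATGCG, of the site of NRF1, was in 8 of 65 windows (12.31%, beside 3.676% of those of expressed genes), AAGATGGCG, of YY1, in 6 (9.231% beside 3.173%), CCGGAAG, of ETS factors such as GABPA, in 16 (24.62% beside 17.77%) and TCAAGGTCA, of estrogen-related receptors, in 2 (3.077% beside 0.2562%). The receptor motif was in the windows of Sdhd and Atp5g3. TGACGTCA, the cyclic AMP response element, was in 4 (6.154% beside 3.143%), CCAAT in 29 (44.62% beside 38.76%) and TATAAA in 6 (9.231% beside 7.617%). A short stretch is shown for Sdhd, Ndufb7 and Uqcr11, which like Sdhb were called at 16 dpc against NP without the 6 libraries with Y-linked FPKM but not with all libraries, with the ETS letters in capitals, both 5′ to 3′ on the strand of the gene.
Sdhd, chr9:50603871-50603910, minus strand: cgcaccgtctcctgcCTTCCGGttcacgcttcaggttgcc
Ndufb7, chr8:83566723-83566757, plus strand: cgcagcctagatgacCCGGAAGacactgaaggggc
Uqcr11, chr10:80406863-80406902, minus strand: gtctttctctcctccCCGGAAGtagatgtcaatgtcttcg
All 3 stretches hold the motif, that of Sdhd on the opposite strand, and it was also in the window of Sdhb but not in that of Sdha. The stretch of Ndufb7 ends 1 base before the RefSeq start, which lies inside the longer GENCODE gene given above. A match is a description of the sequence and not evidence of binding.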

How the data were processed

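Single-end reads were trimmed (cutadapt) and aligned to mm10 (HISAT2 2.1.0) by the authors, who took reads with a unique position and obtained FPKM for GENCODE protein-coding genes from Cuffdiff (Cufflinks 2.2.1). The deposited FPKM table was used as it stands, and groups came from the sample titles. Values were analysed as log2(FPKM + 1) for 12952 genes with FPKM of at least 1 in 3 or more libraries, with limma 3.58.1 in R 4.3.3 (9 group means over 27 libraries, intensity trend, robust fit, two-sided, Benjamini-Hochberg adjustment over all genes). The test is relative to log2(FPKM + 1), which understates the change of low genes. The members, lists, markers and tests were chosen with earlier results of these data known.

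Depth was estimated from low FPKM values, of which 95.24% to 99.2% per library lay on whole multiples of 1 read (tolerance 0.1 read). 1 read per kilobase was worth 0.03011 to 0.133 FPKM. Gene positions and transcripts were of GENCODE on mm10. In simulated libraries for 16 dpc against NP over 12952 genes, 12 of 100 genes changed by 0.5 (log2) and 56 of 100 changed by 1 were called, with 3 of 12752 unchanged genes. Noise was drawn independently for each library, and far fewer genes were changed than were called in the data. These rates therefore do not carry over to the data.

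Replicate numbers were checked for pairing by correlating deviations from the group means between zones: all 9 correlations within 16 dpc exceeded 0.1 (0.263 to 0.863), but 5 of 9 within 8 dpc and 4 of 9 within NP did. The block was fitted as an alternative. Genes named are all called members, otherwise up to 3 of the largest in each direction in averaged comparisons, all mitochondrial genes, isoform pairs, and the highest and lowest member of each complex. Other members named by their unadjusted p, by non-overlapping ranges or by a call under an alternative were chosen after their values were seen. Some results are not reported here.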

Additional observations from a re-analysis of the deposited data

How the results depend on the processing

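Under a pseudocount of 0.1, no filter on low values and median-ratio scaling, no count of called genes moved. The shares of all genes called under the alternatives are not given in this section. The counts below therefore have no background beside them and are not a result about these genes. For the nuclear genes at 16 dpc against NP, 1 was called, against 6 with array weights, 7 with quantile normalization, 53 with scaling to the nuclear FPKM sum, 0 with only the groups compared, 0 with the replicate block, 5 on dropping the 6 libraries with Y-linked FPKM, 12 with a connective tissue covariate and 0 to 2 on leaving out 1 library. At 16 dpc against 8 dpc, 0 became 9 with array weights, 1 with quantile normalization, 60 with the nuclear sum, 6 without the Y-linked libraries, 12 with the covariate and 0 to 1 on leaving out 1. For zone 1 against zone 3 averaged, 3 became 14 with array weights, 9 with quantile normalization, 6 with the replicate block, 6 with the nuclear sum, 9 without the Y-linked libraries, 21 with the covariate and 0 to 5 on leaving out 1. By zone, the nuclear sum gave 16, 15 and 10 at 16 dpc against NP in zones 1, 2 and 3 in place of 0, and the covariate gave 1 in zone 3. Between zones 1 and 3, leaving out the Y-linked libraries and the covariate each gave 1 in NP in place of 0, and at 16 dpc array weights gave 2, leaving out the Y-linked libraries 1 and the covariate 2. A fit of the 16 dpc libraries alone with the replicate number as a block called 0.

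For the mitochondrial genes at 16 dpc against NP, 0 became 3 with quantile normalization, 2 with the nuclear sum and 1 with the covariate. At 16 dpc against 8 dpc, 0 became 5 with array weights, 2 with quantile normalization, 1 with the nuclear sum, 2 without the Y-linked libraries, 1 with the covariate and 0 to 1 on leaving out 1. The covariate gave 1 at 8 dpc against NP and 6 between zones 1 and 3. The replicate block changed no other count of called subunit genes. The nuclear sum turned Cox7b to -0.38 at 16 dpc against 8 dpc and to -0.41 against NP, and Ndufa4 to -0.39 against NP. Quantile normalization turned mt-Nd1 to -0.60 at 16 dpc against 8 dpc. The cause of these differences was not tested. The covariate, the block within 16 dpc and leaving out the Y-linked libraries were chosen after seeing the data or with earlier results known.

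The depth leaves low genes such as Cox7a1, Cox6b2, Ndufa4l2 and the 6 low mitochondrial genes on few reads. With 3 libraries a group, single-gene differences between zones of 1 stage had wide intervals. Reads shared between mitochondrial genes and their nuclear copies were not counted, so the levels of those genes are lower bounds of unknown distance.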
